A study of Mus musculus with 36 samples.

Results

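The phase II conjugation enzymes of the mouse were followed here through every array probe whose gene symbol begins with Gsta, Gstk, Gstm, Gsto, Gstp, Gstt, Gstz, Mgst, Ugt1a, Ugt2, Ugt3, or Sult and a number. The rule uses names alone and took 73 probes of 48 genes, out of 13588 genes with a symbol in the normalised table. Expression was measured on Illumina Mouse WG-6 v1_1 BeadChips in liver, kidney, muscle and brain of females of 12 weeks, with 3 RNA pools for each of 3 genotypes in every tissue. XpO mice have 39 chromosomes and a single X, inherited from the father. XmO mice have 39 chromosomes and a single X from the mother, and XX mice have 40 chromosomes. All were of random bred MF1 background, and every X descended from the same progenitor X. XpO and XX mice were born to 40,In(X)1H/XPaf mothers and 40,XY fathers, whereas XmO mice had 40,XX mothers and 40,XPafY* fathers, so parental origin of the X and cross cannot be told apart between XmO and XpO. Pools 1 and 2 of a genotype each held RNA of 3 mice and pool 3 that of 2 mice, and the same pools served the 4 tissues. XpO and XmO pools form 1 group, XO, when they are set against XX. For the XmO pools in that group, X number and cross cannot be told apart, since only XpO and XX mice share a cross.

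Phase II enzymes join a polar group to a drug, a hormone or a waste product so that it can leave the cell in bile or urine. Glutathione S-transferases (Gst, and the membrane-bound Mgst) add glutathione to electrophiles, UDP-glucuronosyltransferases (Ugt) add glucuronic acid from UDP-glucuronate, and sulfotransferases (Sult) add sulfate from the donor PAPS. Liver is the main organ of conjugation, with kidney and gut as further sites, and many of these genes answer to NRF2, CAR, PXR and AHR, the factors that sense oxidants and foreign compounds.

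Several families lie in clusters, so the tissue patterns below are those of neighbours. The 8 Ugt1a genes lie at chr1:88055411-88220002 (GRCm38.p6), where each has a first exon of its own and all share the remaining exons. The 6 Ugt2 genes span chr5:86889770-87490871 and the 7 Gstm genes chr3:107895854-108045179. Gsta1, Gsta2 and Gsta4 share a region of chromosome 9, and Gsta3 lies on chromosome 1. Probe sequences were not used here, so signal that near-identical members share on the array cannot be told apart.

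Of the 48 genes, 42 had a promoter in the RefSeq table of build GRCm38.p6, with 53 windows between them, each of 250 bases before to 50 bases after the start. The antioxidant response element TGACNNNGC, the site known for NRF2, was searched on both strands and occurred in 4 of these windows (7.55%), those of Gsta3, Gstm5, Gstm7 and Mgst1, against 12.4% of all 32851 windows. The core of the xenobiotic response element GCGTG, known for AHR, occurred in 12 windows of 10 member genes (22.6%), against 32.4% of all windows. Promoters are shown for a pair of alpha-class genes with opposite tissue order and for 2 neighbouring Ugt2 genes that differed in opposite directions between XO and XX livers. Capitals mark the xenobiotic core in Gsta2 (chr9:78347096-78347395, minus strand), 7 bases before the start, and the antioxidant element in Gsta3 (chr1:21240335-21240634, plus strand), 121 bases before it. In Ugt2b35 (chr5:87000610-87000909, plus strand) and Ugt2b36 (chr5:87092506-87092805, minus strand) neither motif was found, and capitals mark the longest run they share, of 14 bases. All are 5′ to 3′.
Gsta2: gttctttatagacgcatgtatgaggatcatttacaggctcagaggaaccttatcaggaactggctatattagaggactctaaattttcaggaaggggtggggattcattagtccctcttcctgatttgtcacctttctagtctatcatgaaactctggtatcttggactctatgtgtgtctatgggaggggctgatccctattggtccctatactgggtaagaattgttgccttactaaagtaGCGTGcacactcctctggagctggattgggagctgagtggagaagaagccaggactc
Gsta3: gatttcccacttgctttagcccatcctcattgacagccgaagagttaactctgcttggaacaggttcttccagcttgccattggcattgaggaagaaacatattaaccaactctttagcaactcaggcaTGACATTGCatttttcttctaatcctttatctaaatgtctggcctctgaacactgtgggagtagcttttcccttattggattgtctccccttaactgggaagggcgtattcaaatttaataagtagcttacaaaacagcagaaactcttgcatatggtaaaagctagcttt
Ugt2b35: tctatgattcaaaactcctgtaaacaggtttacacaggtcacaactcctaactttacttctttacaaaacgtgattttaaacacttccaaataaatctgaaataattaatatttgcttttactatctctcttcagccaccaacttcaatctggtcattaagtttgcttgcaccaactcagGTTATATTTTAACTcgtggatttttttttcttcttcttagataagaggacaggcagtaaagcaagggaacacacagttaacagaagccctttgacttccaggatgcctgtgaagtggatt
Ugt2b36: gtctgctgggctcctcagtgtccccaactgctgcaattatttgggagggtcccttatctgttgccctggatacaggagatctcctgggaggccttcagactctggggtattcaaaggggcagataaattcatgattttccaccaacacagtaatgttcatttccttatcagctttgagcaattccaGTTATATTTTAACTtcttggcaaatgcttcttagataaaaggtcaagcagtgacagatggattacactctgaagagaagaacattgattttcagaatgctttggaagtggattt
The shared run starts 70 bases before the start of Ugt2b35 and 64 bases before that of Ugt2b36, and these were the 2 windows of 32851 that held it. Position by position and without gaps, the windows of the pair were equal at 30.7% of their bases. Since the shared run starts at different positions, this comparison sets it out of register and does not measure how alike the promoters are.

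Blanks in the authors' normalised table were read as not detected, and tests within a tissue left such probes out. The members were detected with 65 probes of 44 genes in liver, 60 probes of 38 genes in kidney, 47 probes of 32 genes in muscle and 43 probes of 28 genes in brain, and 37 probes were detected in all 4 tissues. Levels are quantile-normalised log2 signals. The 17747 probes with no value in the authors' table had a median level of 5.69, and 95 percent of them lay below 5.90, which is the level near which a signal cannot be told from none. A level of one probe is not set against that of another, since probes differ in how strongly they bind. The muscle array of XpO pool 3 could not be used, which leaves 35 arrays. Xist, the RNA of the inactive X, read 5.91 to 6.61 in the XO pools and 9.98 to 11.67 in the XX pools with probe ILMN_2475156, so each array used matched its label as XO or XX. Xist does not tell XpO and XmO pools apart. The defining markers of each tissue were detected in it, with all 8 measured genes in liver and 7 of 7 measured genes in kidney, muscle and brain.

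Conjugation enzymes divided mainly between liver and kidney. A probe was called highest in a tissue when it exceeded each other tissue by at least 1 on the log2 scale with an adjusted p of at most 0.05 (limma, Benjamini-Hochberg over all 28885 probes). Liver was the highest tissue of 30 member probes of 25 genes (41.1% of the members), where 4.21% of all probes were called highest in liver. Kidney was the highest tissue of 13 probes of 8 genes (17.8%), where 3.14% of all probes were. Brain had 1 member probe against 8.45% of all probes, and muscle had 0 against 4.61%, although 4 member probes were highest in muscle on the adjusted p alone. For all 44 probes called, every array of the highest tissue lay above every array of the other tissues, and that tissue was the highest within XpO, XmO and XX alike. Of 15 genes with over 1 probe, 0 had probes called in different tissues, and 5 (Gsta3, Gstm1, Gstm3, Ugt1a6a and Ugt1a7c) had some probes called and others not. Since these are pieces of tissue, fewer cells of a type cannot be told apart from less RNA per cell.

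**Figure D1:**
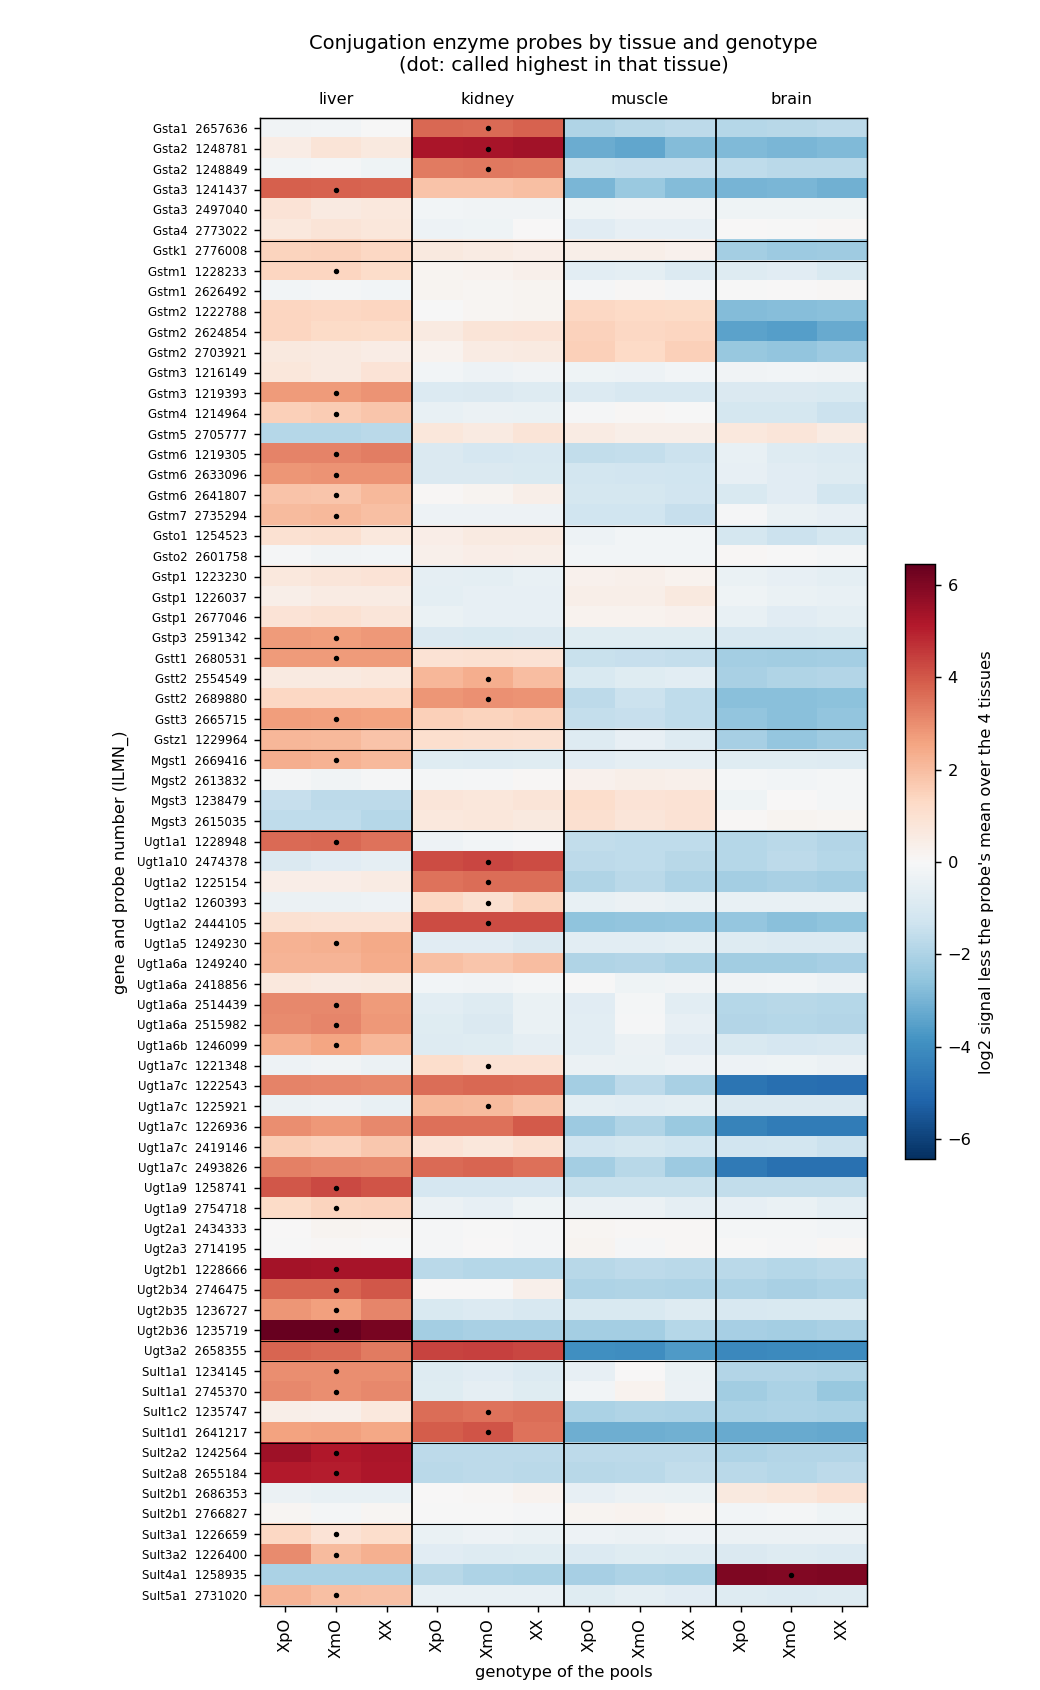
Heat map of the 73 member probes (rows, by family) in the 12 groups of tissue and genotype (columns; XpO, XmO, XX within each tissue), coloured by mean log2 signal less the probe's mean over the 4 tissues. Black dots mark the tissue in which a probe was called highest, 30 in liver, 13 in kidney and 1 in brain, and the 3 genotypes of a tissue are nearly the same colour.

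Among the alpha-class Gst genes, Gsta1 and Gsta2 were highest in kidney and Gsta3 in liver. Gsta2 (probe ILMN_1248781) had a level of 14.60 ± 0.16 in kidney (SD, n = 9), against 9.93 ± 0.22 in liver, 6.41 ± 0.30 in brain (n = 9 each) and 6.18 ± 0.46 in muscle (n = 8). Kidney exceeded liver 25.5-fold (difference 4.67 ± 0.13 (SE), adjusted p = 2.5e-28), and the second probe of Gsta2 gave 11.8-fold. Gsta3, which in mouse detoxifies aflatoxin epoxide, ran the other way with 14.37 ± 0.06 in liver and 12.45 ± 0.14 in kidney, a 3.79-fold difference in favour of liver (ILMN_1241437, adjusted p = 5.1e-19). Its second probe was detected in liver alone, at 6.69, and was at least 1.92-fold above kidney. Gsta4, which conjugates the lipid aldehyde hydroxynonenal, was within 2.50-fold across the 4 tissues and was called in none.

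The mu class held the largest number of liver calls among the Gst genes. Gstm1, Gstm3, Gstm4, Gstm6 and Gstm7 each had a probe called highest in liver. The widest gap was that of Gstm6 (ILMN_1219305), at 10.89 ± 0.18 in liver, 6.92 ± 0.37 in brain, 6.63 ± 0.12 in kidney and 6.16 ± 0.10 in muscle, which is 15.6-fold above the next tissue. Gstm2 and Gstm5 departed from their cluster. Gstm2 (ILMN_2624854) was nearly even between muscle at 12.57 ± 0.08 and liver at 12.45 ± 0.16 (adjusted p = 0.21), and muscle exceeded brain 28.0-fold. On its probe ILMN_2703921 muscle was 1.82-fold above liver. Gstm5 read 11.65 ± 0.13 in kidney, 11.60 ± 0.19 in brain and 11.37 ± 0.08 in muscle, and was lowest in liver at 9.12 ± 0.10. Kidney and brain did not pass the threshold against each other for Gstm5 (difference 0.05 ± 0.06, adjusted p = 0.47).

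The remaining cytosolic classes ranged from liver-restricted to even. Gstp3 was detected in liver alone at 9.36 ± 0.12, at least 11.4-fold above each other tissue, whereas its neighbour Gstp1, one of the most widely expressed Gst genes, was within 2.79-fold across tissues on each of its 3 probes. Gstt1 (3.49-fold over kidney) and Gstt3 (2.21-fold over kidney) were highest in liver, and both probes of Gstt2 were highest in kidney, 2.92-fold and 2.93-fold over liver. Gstz1, the maleylacetoacetate isomerase of tyrosine breakdown, read 13.66 ± 0.14 in liver and 12.66 ± 0.08 in kidney, just short of the log2 difference of 1 that a call required. Gstk1, a transferase of mitochondria and peroxisomes, was 1.84-fold higher in liver than in kidney and 12.7-fold higher than in brain. Gsto1, which reduces dehydroascorbate, was 1.29-fold higher in liver than in kidney and 4.33-fold higher than in brain. Gsto2 was detected in kidney alone, at 6.14 ± 0.07, close to the level of undetected probes.

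The membrane-bound transferases showed opposite orders. Mgst1 was detected in liver alone at 8.73 ± 0.12, at least 7.19-fold above muscle. Mgst3, of the same protein family as leukotriene C4 synthase, was lowest in liver on both probes, with muscle 6.02-fold and 6.12-fold above liver. Mgst2 was detected in muscle alone, at 6.10 ± 0.16.

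At the Ugt1a locus, probes annotated to neighbouring genes differed in their highest tissue. Ugt1a1, the enzyme that conjugates bilirubin, Ugt1a5, Ugt1a6a, Ugt1a6b and Ugt1a9 had probes called highest in liver, and Ugt1a2, Ugt1a7c and Ugt1a10 in kidney. Ugt1a9 (ILMN_1258741) had the widest gap, at 11.38 ± 0.20 in liver and 6.21 ± 0.08 in kidney (36.1-fold, adjusted p = 2.3e-42), and it was not detected in muscle or brain. Ugt1a1 was 13.8-fold higher in liver than in kidney. Ugt1a10 was 31.4-fold higher in kidney than in liver, at 11.66 ± 0.20 and 6.69 ± 0.22. Probes that the annotation gives to Ugt1a7c did not share a single order. ILMN_1225921 was 5.18-fold higher in kidney than in liver, ILMN_1222543 only 1.42-fold (14.76 ± 0.10 in kidney, 14.26 ± 0.07 in liver), and ILMN_2419146 was 1.65-fold higher in liver than in kidney. Which of these probes lie in the exons common to the locus was not examined.

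The Ugt2b genes, which act on steroids, bile acids and drugs, were all called highest in liver. Ugt2b36 had a level of 14.14 ± 0.16 in liver and 5.76 ± 0.27 in muscle, below the 5.90 under which most undetected probes lie, so liver was at least 334-fold above muscle (adjusted p = 1.2e-44) and at least 346-fold above kidney, where it was not detected. Ugt2b1 was at least 134-fold higher in liver than in muscle, where it too read below 5.90, Ugt2b34 was 13.2-fold higher in liver than in kidney, and Ugt2b35 14.1-fold. Ugt2a1, known from the olfactory epithelium, and Ugt2a3 read 5.85 to 6.28 in every tissue, near the level of undetected probes. Ugt3a2, whose human counterpart uses UDP-glucose and UDP-xylose rather than UDP-glucuronate, was shared by kidney at 14.16 ± 0.07 and liver at 13.38 ± 0.19 (1.72-fold, difference 0.78 ± 0.07). Kidney was 297-fold above muscle and at least 356-fold above brain for Ugt3a2.

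Sulfotransferases divided among liver, kidney and brain. Sult2a2 and Sult2a8, of the family that sulfates steroids and bile acids, read 13.01 ± 0.28 and 12.32 ± 0.09 in liver and were 123-fold and, with a muscle level below 5.90, at least 113-fold above muscle. Sult1a1, the phenol sulfotransferase, was highest in liver on both probes (9.68-fold and 8.95-fold over muscle). Sult1c2 (8.63-fold over liver) and Sult1d1 (2.39-fold over liver) were highest in kidney, and mouse Sult1d1 sulfates catecholamines. Sult3a1, Sult3a2 and Sult5a1 were highest in liver. Sult4a1, a brain member with no settled substrate, read 13.75 ± 0.18 in brain, at least 245-fold above kidney, where it averaged 5.81 (adjusted p = 1.7e-45), and at least 258-fold above liver, where it was not detected. Sult2b1, which sulfates cholesterol, reached its highest level, 7.05 ± 0.33, in brain with one probe, 1.58-fold over kidney, and the other probe lay between 6.27 and 6.62 in all tissues.

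Between XO and XX livers, 5 of 65 member probes passed the threshold (7.69%), where 5.70% of all 19878 probes detected in liver did. Ugt2b36, Ugt3a2 and Gsto1 were higher in XO livers, and Ugt2b35 and Sult1c2 were lower, each by 1.24-fold to 1.30-fold. By direction this is 3 member probes higher against 2.94% of all probes, and 2 lower against 2.76%. At an unadjusted p of at most 0.05, 16 member probes (24.6%) differed, 8 in each direction, against 26.3% of all probes. The share of the members is thus near that of all probes, and 55 of the 65 differed by under 0.25 on the log2 scale. Over the members the median difference was 0.01, as it was over all probes.

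Ugt2b36 (chr5:87065927-87092555) had liver levels of 14.25, 14.22 and 14.23 in XpO pools 1 to 3 and 14.23, 14.32 and 14.23 in XmO pools 1 to 3, against 13.92, 13.91 and 13.95 in XX pools 1 to 3. Every XO pool lay above every XX pool, and the XpO and XmO pools overlapped. The difference was 0.32 ± 0.06 (SE), a 1.25-fold higher signal in XO (adjusted p = 0.0222).

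Ugt3a2 (chr15:9335551-9370955) had liver levels of 13.55, 13.60 and 13.56 in XpO pools and 13.36, 13.33 and 13.58 in XmO pools, against 13.18, 13.10 and 13.19 in XX pools. The groups did not overlap, with XmO pools 1 and 2 nearest to the XX pools. XO exceeded XX by 0.34 ± 0.08, or 1.26-fold (adjusted p = 0.0341).

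Gsto1 (chr19:47854973-47864790) read 12.24, 12.25 and 12.06 in XpO livers and 12.01, 12.18 and 12.43 in XmO livers, against 11.88, 11.86 and 11.81 in XX livers. XX pools were close together and below all XO pools, which spread more widely. The difference was 0.35 ± 0.09, or 1.27-fold (adjusted p = 0.0429).

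Ugt2b35 (chr5:87000860-87013274) read 9.77, 9.67 and 9.92 in XpO livers and 9.62, 9.65 and 9.51 in XmO livers, against 10.08, 9.91 and 10.22 in XX livers. XpO pool 3 and XX pool 2 were at nearly the same level, so the groups touch, and the XmO pools lay lowest. XO was lower by 0.38 on the log2 scale (difference -0.38 ± 0.09, 1.30-fold lower, adjusted p = 0.0396). Its neighbour Ugt2b36 thus differed the opposite way in the same livers.

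Sult1c2 (chr17:53829637-53845958) read 8.44, 8.33 and 8.48 in XpO livers and 8.27, 8.45 and 8.36 in XmO livers, against 8.69, 8.53 and 8.87 in XX livers. All XX pools lay above all XO pools, by a narrow margin between XpO pool 3 and XX pool 2. The difference was -0.31 ± 0.08 (1.24-fold lower in XO, adjusted p = 0.0499). In kidney, its highest tissue, XO pools had 11.49 to 11.70 and XX pools 11.56 to 11.69.

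**Figure D2:**
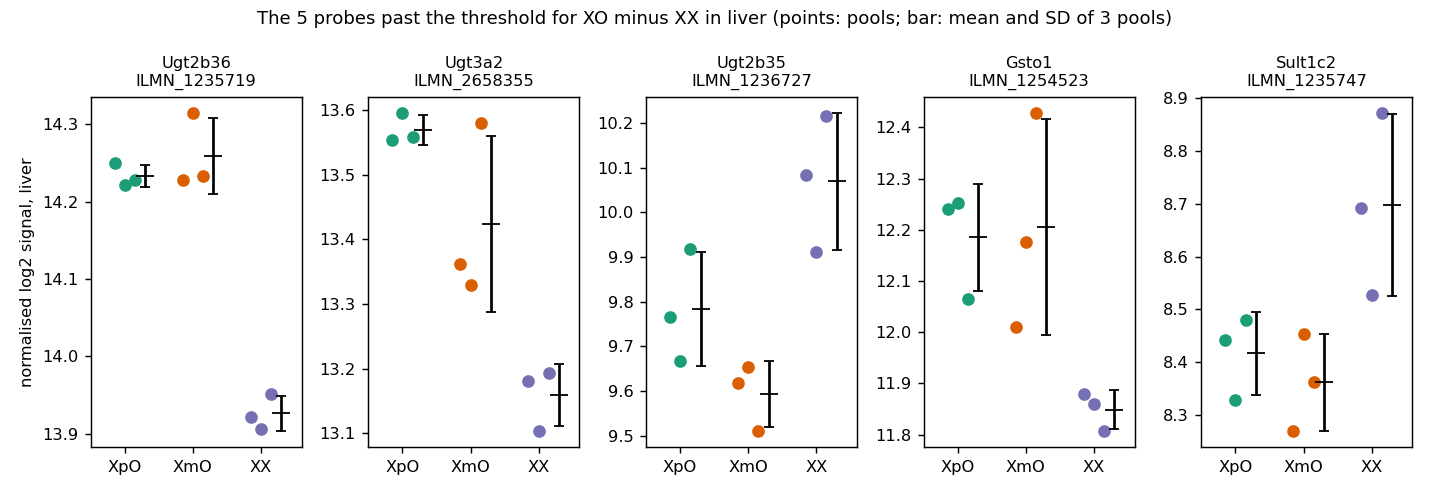
Normalised log2 signal in liver of the 5 probes past the threshold for XO minus XX, with 1 point per pool and, beside the points, the mean and SD of 3 pools; genotypes run XpO, XmO, XX and each panel has its own vertical range. Ugt2b36, Ugt3a2 and Gsto1 lie higher and Sult1c2 lower in all 6 XO pools than in the 3 XX pools, and Ugt2b35 overlaps between XpO pool 3 and XX pool 2.

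Each of these calls rested on few pools. With XpO pools alone against XX, of the same cross, 0 members passed by limma (adjusted p of these 5 probes 0.129 to 0.214). With XmO pools alone, of another cross than XX, Ugt2b35 passed by limma (adjusted p = 0.0471). Without XX pool 1 or XX pool 3, 0 of the 5 or any other member passed in liver, and without any other single pool 1 to 4 did. Gsto1 lost its call whichever of the 9 pools was left out (adjusted p 0.0504 to 0.152), and Ugt2b36 lost it without XX pool 1 (0.0564) or XX pool 3 (0.0872). Ugt3a2 kept its call only without XmO pool 1 (0.0485) or XmO pool 2 (0.0453), and otherwise had an adjusted p of up to 0.113. Ugt2b35 kept it only without XX pool 2 (0.0414), XpO pool 1 (0.0493) or XpO pool 3 (0.0413), and otherwise reached 0.166. Sult1c2 kept it only without XX pool 2 (0.0391) and otherwise reached 0.207. With median scaling, 9 members were called higher in XO livers and 0 lower, where all probes shifted by a median of 0.05 and split into 1288 higher and 139 lower, against 584 and 549 with quantiles. Ugt2b35 and Sult1c2 were then not called. The liver defining markers, of which 3 of 11 probes were called higher in XO, had summed signals, in units of 1000, of 197 to 205 in XO livers and 188 to 190 in XX livers, and the blood cell markers, of which 3 of 16 were called lower, 10.4 to 14.8 in XO and 13.0 to 15.0 in XX. Of the connective tissue markers 3 of 9 were called, 2 higher and 1 lower, with sums of 12.1 to 13.9 in XO and 11.5 to 12.4 in XX. Of these 9 probes, however, 7 read lower in XO and only 2 higher (median difference -0.21). The part of all these markers in the differences of the members was not tested.

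Just short of the threshold, Gstz1 read 13.65 to 13.79 in XO livers and 13.39 to 13.56 in XX livers without overlap (difference 0.24 ± 0.07, adjusted p = 0.0516). Gstm1, Mgst1 and one probe of Ugt1a6a also had XO and XX pools that did not overlap in liver, with differences of 0.19, 0.20 and -0.20 and adjusted p of 0.102, 0.104 and 0.0817. In all, 8 of 65 member probes had non-overlapping groups. The share over all probes was not counted, so this number is not a result about the members.

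The genes that supply the conjugating enzymes or use UDP-glucuronate, and other phase II transferases, were counted in the same way between XO and XX livers. Of the probes for glutathione synthesis and recycling 0 of 18 passed (limma, 4 at an unadjusted p of at most 0.05), among them Gclc, the rate-limiting enzyme, at -0.51 ± 0.15 (adjusted p = 0.0654). For the supply and use of UDP-glucuronate 2 of 18 passed, both lower in XO. These were Rgn at -0.49 ± 0.08 (adjusted p = 0.0175) and Slc35d1, which carries UDP-glucuronate into the endoplasmic reticulum, at -0.38 ± 0.10 (adjusted p = 0.0492). Rgn is X-linked, and the paper lists it among the X chromosome probes overexpressed in XX livers. For the supply of PAPS and sulfate 0 of 20 passed (limma, 4 at an unadjusted p of at most 0.05). Among other phase II transferases 1 of 21 passed, the glycine acyltransferase Glyat at -0.36 ± 0.07 (adjusted p = 0.0266), and 10 had an unadjusted p of at most 0.05, 3 higher and 7 lower in XO.

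Targets of the sensing factors gave a similar count. Of NRF2 targets 0 of 27 probes passed (limma, 3 at an unadjusted p of at most 0.05), of CAR and PXR targets 0 of 25 (7) and of AHR targets 0 of 8 (2). Of PPARA targets 2 of 26 passed, Ehhadh at -0.52 ± 0.09 and Cpt1a at -0.36 ± 0.07, both enzymes of fatty acid oxidation and both lower in XO. Among female-predominant liver genes 2 of 29 probes, both of Rtn4, passed and were lower. In that list 10 probes read higher in XO and 19 lower (median difference -0.10). Among male-predominant liver genes 2 of 22 probes passed and were higher, Serpina1e at 0.58 ± 0.09 and Cyp7b1 at 0.57 ± 0.15. The rest of that list did not lean the same way, since 11 of the 22 read higher in XO and 11 lower (median difference -0.005). Of periportal hepatocyte genes 4 of 23 probes passed, 1 higher and 3 lower, although 17 of the 23 read higher in XO and 6 lower (median difference 0.10). Of pericentral genes 2 of 25 probes passed, 1 in each direction. These shares stand beside 5.70% of all probes, and the list medians ran from -0.10 to 0.10 beside 0.01 over all probes.

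**Figure D3:**
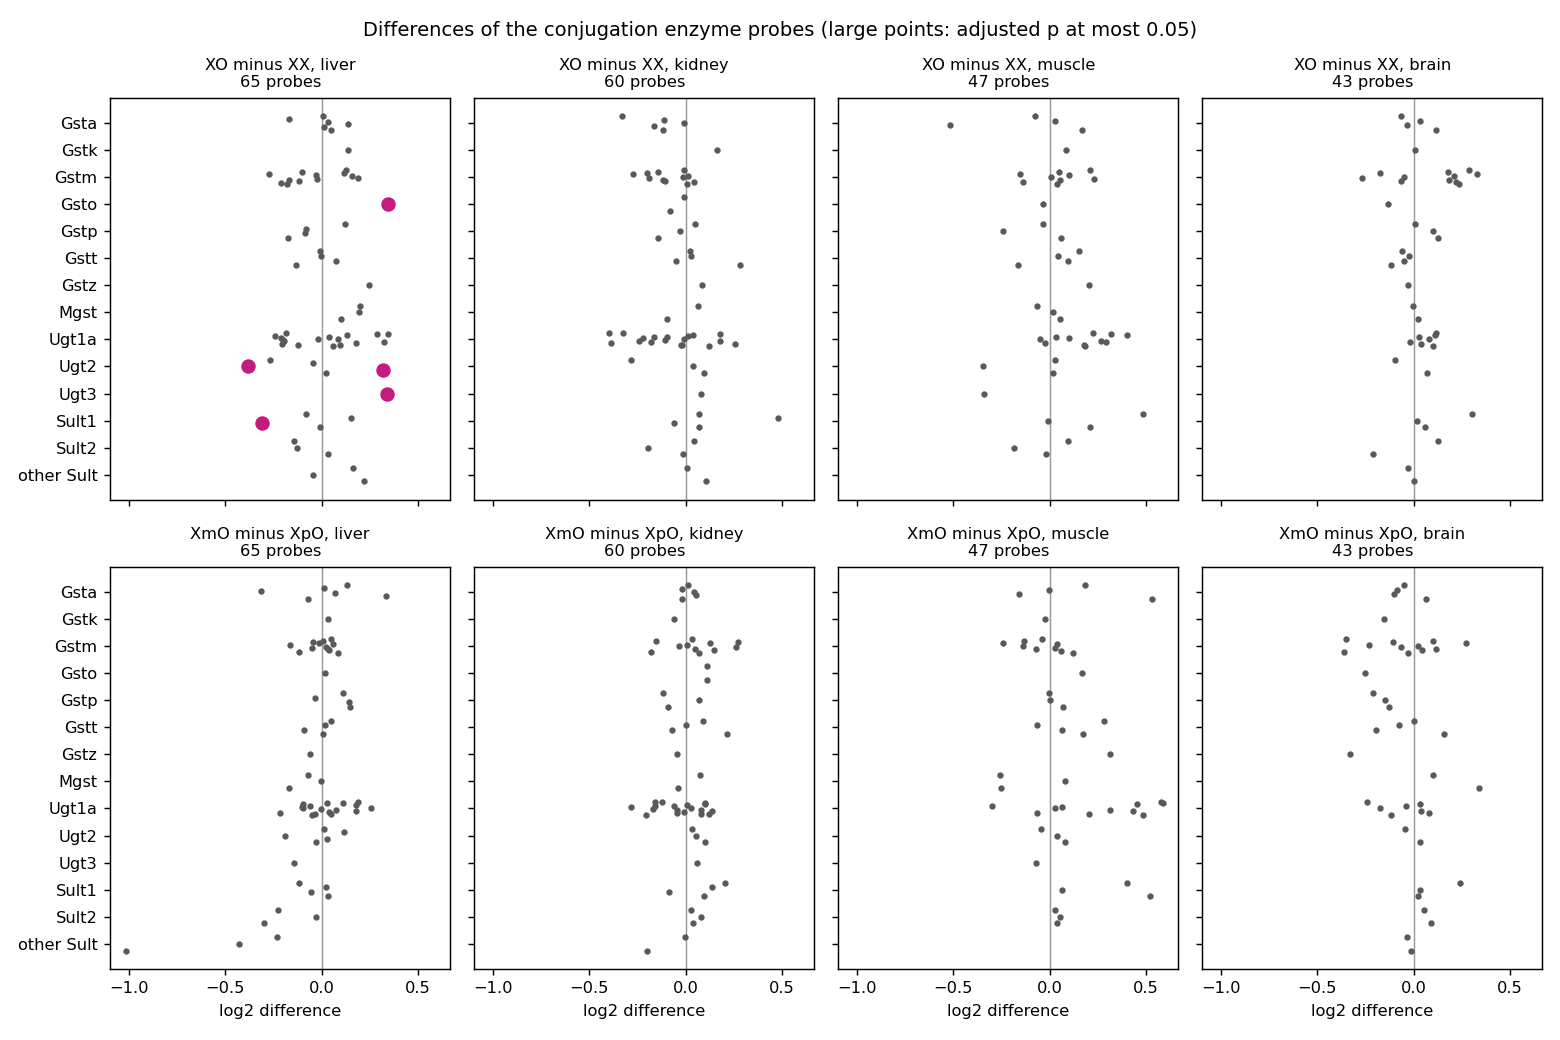
Log2 differences of the member probes by family (rows), with XO minus XX in the upper panels and XmO minus XpO in the lower panels, for liver, kidney, muscle and brain. Large points are the 5 probes past an adjusted p of 0.05, all in liver for XO minus XX, and most other points lie within 0.25 of 0.

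In kidney, muscle and brain, 0 members passed for XO minus XX by limma. Of all probes 0.0470% passed for kidney, 0.00917% for muscle and 0.00402% for brain. At an unadjusted p of at most 0.05, kidney had 16 of 60 member probes (26.7%, 4 higher and 12 lower in XO) beside 12.8% of all probes. Of these 16, 8 were Ugt1a probes (2 higher and 6 lower), from 1 locus whose genes share exons, so they are not independent. Muscle had 7 of 47 (14.9%) beside 15.5% of all probes, and brain 2 of 43 (4.65%) beside 2.68%. Gsta4 was nearest to a call in kidney, with 10.78, 10.65 and 10.66 in XpO pools and 10.69, 10.78 and 10.65 in XmO pools, against 11.19, 11.04 and 10.87 in XX pools. All XO pools lay below all XX pools (difference -0.33 ± 0.07, adjusted p = 0.148), and without XX pool 3 the difference passed (adjusted p = 0.0468). In brain, Gstm4 read 6.71, 6.62 and 6.62 in XpO pools and 6.69, 6.49 and 6.68 in XmO pools, against 6.42, 6.49 and 6.29 in XX pools (difference 0.24 ± 0.07, adjusted p = 1.00), and XmO pool 2 lay at the level of XX pool 2.

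Kidney pools differed in adipocyte markers. The summed signal of their 9 probes, in units of 1000, was 3.06, 2.77 and 6.64 in XpO pools and 0.757, 3.84 and 0.742 in XmO pools, against 3.41, 10.1 and 9.54 in XX pools. XX pools 2 and 3 stand highest and XmO pools 1 and 3 lowest. Of 8 adipocyte probes detected in kidney 0 passed between XO and XX, and 5 had an unadjusted p of at most 0.05, all lower in XO. Adipoq, which encodes the adipocyte hormone adiponectin, read 6.23 to 10.82 in XO kidneys and 9.80 to 11.73 in XX kidneys. The Ugt1a6a probe ILMN_2515982 (described after its values were seen) followed the same pools. It read 6.79, 6.96 and 7.04 in XpO kidneys and 6.70, 7.01 and 6.72 in XmO kidneys, against 6.95, 7.50 and 7.35 in XX kidneys (difference -0.40 ± 0.11, limma adjusted p = 0.218). On ILMN_2514439, too, XX pools 2 and 3 were highest (7.27 and 7.17). Other probes of Ugt1a6a did not follow these pools. On ILMN_1249240 XX pool 3 read 9.82, below XpO pools 1 and 2 (9.96 and 9.97). On ILMN_2418856 XX pool 1 was highest, at 6.59. Gsta4 was highest in XX pool 1, whose adipocyte sum was not high. The part of the adipocyte signal in these differences was not tested.

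In muscle the widest spread between pools was that of Gsta3, Ugt1a7c and Ugt1a6a, which were described after their values were seen. Ugt1a7c (ILMN_1222543) read 8.76 and 9.14 in XpO pools 1 and 2 and 9.02, 9.82 and 9.45 in XmO pools, against 9.42, 9.25 and 8.50 in XX pools. Ugt1a6a (ILMN_2515982) read 6.88 and 7.25 in XpO and 7.45, 8.05 and 7.41 in XmO, against 7.32, 7.47 and 6.75 in XX. XmO pool 2 was highest and XX pool 3 lowest for both, with XpO pool 1 next to lowest. Gsta3 read 7.36 and 7.92 in XpO and 8.16, 8.13 and 8.22 in XmO, against 8.13, 8.22 and 7.03 in XX, with XX pool 3 again lowest. In units of 1000, the adipocyte markers of muscle summed to 34.4 and 37.2 in XpO and 40.3, 51.9 and 45.7 in XmO. In XX they summed to 39.5, 45.0 and 31.7. XmO pool 2 was the highest, as for these probes of Ugt1a7c and Ugt1a6a but not that of Gsta3. XX pool 3 was the lowest, as for these probes of all 3 genes. None of the 6 probes of these genes that varied in this way passed by limma between XO and XX (adjusted p 0.427 to 0.785) or between XmO and XpO (0.511 to 0.658). Not every probe of these genes did so. Ugt1a6a ILMN_2418856 read 6.18 in XmO pool 2 and 6.40 in XX pool 3, and Ugt1a7c ILMN_1225921 read 6.40 and 6.47. The part of the adipocyte signal was not tested.

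**Figure D4:**
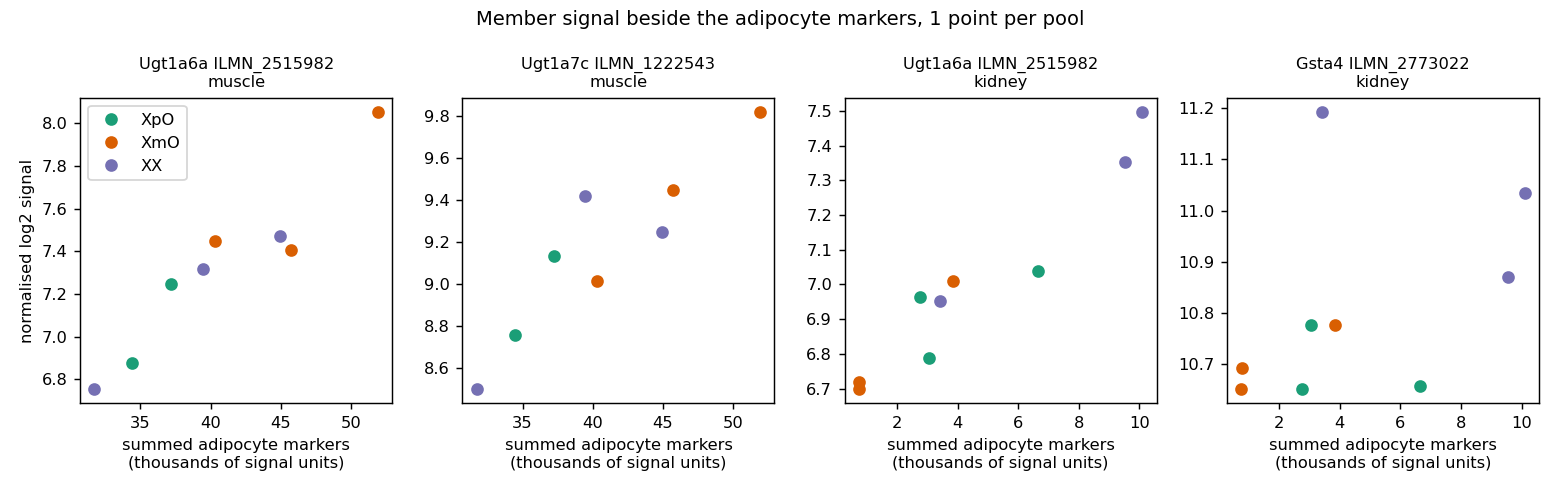
Log2 signal of a member probe (vertical) against the summed signal of 9 adipocyte probes in units of 1000 (horizontal), 1 point per pool, for Ugt1a6a and Ugt1a7c in muscle and Ugt1a6a and Gsta4 in kidney, coloured by XpO, XmO and XX. XmO pool 2 is at the upper right in both muscle panels and XX pool 3 at the lower left, and XX pools 2 and 3 are at the upper right for Ugt1a6a in kidney.

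Ugt3a2 was nearest to a call in muscle for XO minus XX, near the level of undetected probes, with 5.78 and 5.96 in XpO and 5.76, 5.88 and 5.75 in XmO, against 6.42, 6.08 and 5.99 in XX (difference -0.34 ± 0.10, adjusted p = 0.179). The summed signal of liver defining markers, in units of 1000, was 0.953 to 1.11 in XO muscle and 2.11, 2.10 and 0.975 in XX pools 1, 2 and 3. Ugt2b36 in muscle read 6.09 and 6.23 in those XX pools 1 and 2, 5.59 in XX pool 3 and 5.45 to 5.77 in XO pools. With the muscle arrays of XX pools 1 and 2 left out, an alternative chosen after seeing the data, the difference of Ugt3a2 in muscle was -0.17 ± 0.11 (adjusted p = 0.617). This leaves 1 XX muscle array, assumed to vary like the XO arrays, and removes the XX arrays in which Ugt3a2 and Ugt2b36 read highest, so a smaller difference follows from the choice of arrays.

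Whether the difference between XO and XX in liver departed from that in kidney, brain or muscle was tested with interaction terms. Against kidney 1 of 54 member probes passed, where 0.150% of all probes did. This was Ugt2b35 (-0.48 ± 0.10, adjusted p = 0.0302), which read 5.85 to 6.14 in XO kidneys and 5.88 to 5.96 in XX kidneys, close to the level of undetected probes. Its call was lost without any single XX or XmO pool (adjusted p 0.0600 to 0.188). Against brain 2 of 39 passed, where 4.45% of all probes did. Gsto1 differed by 0.48 ± 0.13 (adjusted p = 0.0329) and Gstm6 (ILMN_2641807) by -0.60 ± 0.13 (adjusted p = 0.0151). That probe of Gstm6 read 12.63 to 12.90 in XO livers and 12.88 to 13.18 in XX livers, but 9.93 to 10.32 in XO brains and 9.64 to 9.83 in XX brains. The other 2 probes of Gstm6 did not pass in this contrast, at -0.34 ± 0.21 and -0.24 ± 0.17. Without XX pool 1 or 3 the call of Gstm6 was lost (adjusted p 0.0591 and 0.111), as it was with median scaling (-0.25, adjusted p = 0.219), under which the contrast over all probes had a median of 0.11 and split into 1340 higher and 57 lower, against 495 and 311 with quantiles. Gsto1 lost its call without XX pool 2 (0.0965), XX pool 3 (0.190), XmO pool 1 (0.0637) or XmO pool 3 (0.0817).

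Against muscle 2 of 46 passed, Ugt3a2 (0.68 ± 0.11, adjusted p = 0.000409) and Ugt2b36 (0.66 ± 0.13, adjusted p = 0.0018), where 11.2% of all probes did. Both read near the undetected level in muscle and were highest there in XX pools 1 or 2. With XX pool 3 as the 1 XX muscle array, the contrast of Ugt3a2 was 0.51 ± 0.12 (adjusted p = 0.0225) and that of Ugt2b36 was 0.28 ± 0.12 (adjusted p = 0.186), with the same limit on what leaving out these arrays can show. With the authors' values, which include the muscle array of XpO pool 3, the contrasts were 0.41 (adjusted p = 0.0937) for Ugt3a2 and 0.19 (adjusted p = 0.809) for Ugt2b36.

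Between XmO and XpO, limma called 0 member probes in any tissue. Over all probes, 0.0503% passed for liver, 0.0897% for kidney, 0.0138% for muscle and 0.0161% for brain. At an unadjusted p of at most 0.05 there were 3 of 65 member probes in liver (4.62%, beside 9.70% of all probes) and 5 of 60 in kidney (8.33%, beside 11.2%). Muscle had 7 of 47 (14.9%, beside 9.13%) and brain 6 of 43 (14.0%, beside 11.2%). In muscle Sult1a1 (ILMN_1234145) was nearest to a call, with 8.51, 8.85 and 8.86 in XmO and 8.17 and 8.27 in XpO pools 1 and 2. Every XmO pool lay above both XpO pools (difference 0.52 ± 0.12, adjusted p = 0.245), and the second probe gave 0.40 ± 0.15 with pools that touch. In the same comparison 9 of 9 adipocyte probes (median difference 0.38) and 5 of 5 peripheral nerve probes (median 0.40) were on the higher side in XmO muscle, 0 of them past the threshold by limma (2 and 3 at an unadjusted p of at most 0.05), and their part in the difference of Sult1a1 was not tested. In kidney Gstm2 (ILMN_2624854) read 12.00, 11.98 and 12.01 in XmO and 11.65, 11.67 and 11.89 in XpO (difference 0.26 ± 0.07, adjusted p = 0.208), without overlap, and XX kidneys at 12.04 to 12.08 lay beside the XmO pools.

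In brain Gsto1 read 9.76, 9.75 and 9.87 in XmO and 10.12, 10.02 and 10.01 in XpO, again without overlap (difference -0.25 ± 0.07, adjusted p = 0.318). In liver the dim probe ILMN_2497040 of Gsta3 read 6.49, 6.77 and 6.37 in XmO and 6.90, 6.86 and 6.80 in XpO (difference -0.31 ± 0.12, adjusted p = 0.446). The bright Gsta3 probe ILMN_1241437 read 14.32 to 14.40 in XmO livers and 14.37 to 14.50 in XpO livers, so the groups of that probe touch.

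Variation between pools of 1 genotype was uneven across the members. Within genotypes, the median SD of liver was 0.14, that of kidney 0.11, that of muscle 0.13 and that of brain 0.16. The largest was that of Sult3a2 in liver, 0.86, and its neighbour on chromosome 10, Sult3a1, an amine sulfotransferase, had 0.33 (both described after their values were seen). Sult3a2 read 10.10, 9.53 and 8.75 in XpO livers, 7.62, 9.03 and 8.68 in XmO livers, and 9.96, 7.85 and 8.40 in XX livers. Sult3a1 read 7.74, 7.71 and 7.42 in XpO, 7.02, 7.48 and 7.09 in XmO, and 7.89, 6.93 and 7.54 in XX. XpO pools 1 and 2 and XX pool 1 were the highest for both genes, and XmO pool 1 and XX pool 2 the lowest for both. Genotypes overlapped throughout, with a difference of 0.22 ± 0.49 for XO minus XX (adjusted p = 0.808) and of -1.02 ± 0.51 for XmO minus XpO (adjusted p = 0.544) in Sult3a2.

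**Figure D5:**
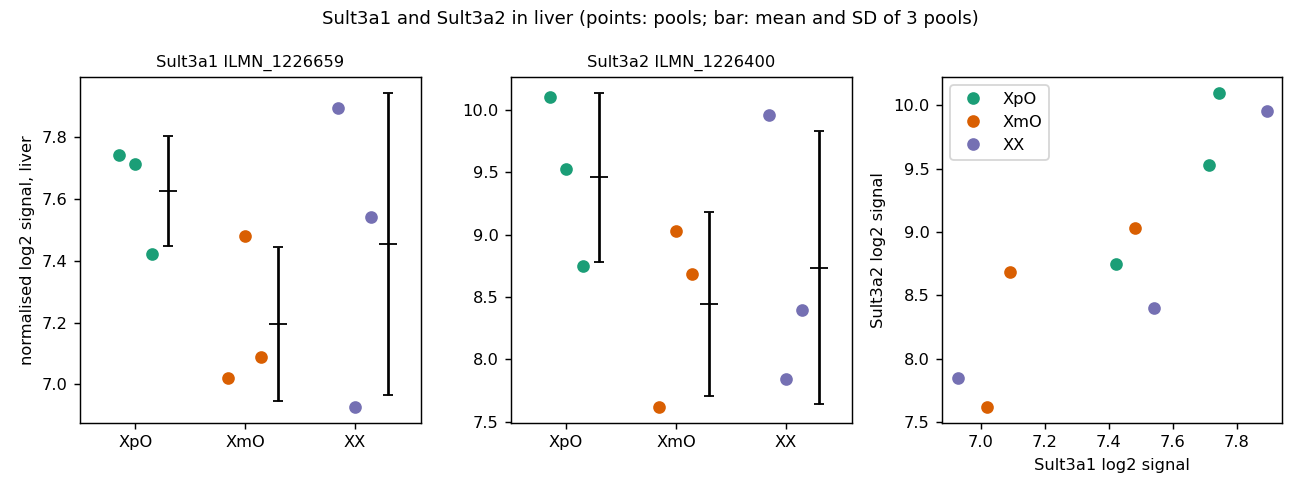
Normalised log2 signal of Sult3a1 and Sult3a2 in liver by genotype (XpO, XmO, XX, with points for pools and bars for the mean and SD of 3 pools), and the 2 genes plotted against each other. Sult3a2 spans 7.62 to 10.10 over the 9 pools, and the pools that are highest or lowest for one gene are so for the other.

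In kidney the most variable member was Sult1d1, with 12.55, 13.10 and 12.54 in XpO and 12.88, 12.74 and 12.98 in XmO, against 12.87, 11.87 and 12.22 in XX. XX pool 2 stood lowest, and XX pool 1 lay among the XO pools (difference 0.48 ± 0.18, adjusted p = 0.309).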

How the data were processed

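Total RNA of each pool was amplified, labelled and hybridised to BeadChips. The authors summarised bead intensities in BeadStudio (version not given in the sources used here) and used lumi to take logs and to quantile-normalise all arrays. The deposited log2 values cover 28885 probes, with a blank where a probe was not detected in a tissue. The deposited table of raw intensities, on a linear scale, holds 47871 lines of 46632 probe identifiers, with medians of 55.6 to 70.4 per array. The number of arrays limits the precision, and array signals give no read depth.

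Here the raw intensities were floored at 1, logged to base 2 and quantile-normalised over 35 of the 36 arrays, with no background correction. For the muscle array of XpO pool 3, raw and normalised columns correlated by rank at -0.0374, against at least 0.99994 for the others, so its raw column was left out, and only fits to the authors' values hold this array. Of the 28885 probes, 21014 carry 1 gene symbol, 6 several and 7865 none. XpO and XmO pools together were compared with XX pools within each tissue, and XmO with XpO in a fit of the 3 genotypes, by the two-sided moderated test of limma 3.58.1 (R 4.3.3), with p-values adjusted by Benjamini-Hochberg over all probes detected in the tissue and a threshold of 0.05. Tissues were compared in a fit to all arrays used. A fold against a tissue where a probe was not detected is a bound, set by the higher of that probe's own level and the lowest detected signal. Interactions were fitted over the 4 tissues, so their spread is shared by all tissues. Arrays of the same pool in different tissues come from the same mice, and their deviations correlated with a median r of 0.137, against -0.017 for arrays of other pools. With pool as a block, the calls of a highest tissue numbered 30 for liver, 13 for kidney, 0 for muscle and 1 for brain, as without it, and the interactions called 1 member against kidney, 3 against muscle and 2 against brain, where the fit without the block called 2 against muscle. The design text treats the 3 pools of a genotype as biological replicates from separate mice, and counts 7 XX mice, whereas the XX pool sizes add to 8. Slide was not used here, so a fit with slide as a block was not run. The steps were tested on simulated data. Tables and figures used Python 3.11.15, pandas 2.3.3, numpy 2.4.6, scipy 1.17.1 and matplotlib 3.10.9.

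The members, gene lists and tests were chosen with earlier results of these data known. Probes with values in each pool were those past the threshold in a comparison, the member with the smallest p in each, and in each family the probe with the widest gap between its highest and next tissue; up to 4 genes with the smallest p were named per list. Alternatives were the authors' values, median scaling, quantiles within a tissue, normexp with an offset of 50, no filter, the brighter probes, each kind of XO pool alone, a replicate block and the omission of each pool. Leaving out the muscle arrays of XX pools 1 and 2 was added after seeing the data.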

Additional observations from a re-analysis of the deposited data

Results flagged for a closer look

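In 62 groups of up to 6 XO pools, 2 pools stood apart from the rest of their group by Dixon's criterion, and chance flags about 1 group in 20. XmO pool 2 had Ugt2b36 at 14.3152 in liver, with the next XO pool at 14.2497 and the lowest at 14.2222. XmO pool 3 had Ugt3a2 at 14.298 in kidney, with the next XO pool at 14.186 and the lowest at 14.1376.

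The difference between XO and XX in liver departed from that in another tissue for 5 probes. Ugt2b35 departed by -0.4758 from kidney. Ugt3a2 departed by 0.6769 and Ugt2b36 by 0.6629 from muscle. Gstm6 (ILMN_2641807) departed by -0.5994 and Gsto1 by 0.4811 from brain. Against kidney 1.85% of the member probes tested passed, beside 0.150% of all probes. Against muscle the shares were 4.35% and 11.2%, and against brain 5.13% and 4.45%.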

How the results depend on the processing

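The count of members called between XO and XX in liver, 5, became 9 with median scaling and 8 with the brighter probes alone. The brighter probes are a smaller set, for which no share over all probes is given here. The count became 0 with XpO pools only, 1 with XmO pools only and 1 with the replicate number as a block. Replicate numbers did not pair the samples across genotypes, since correlations of same-numbered pools ran from -0.583 to 0.37. Without single pools this count ran from 0 to 4, that of kidney from 0 to 2, those of the liver contrasts with kidney, muscle and brain from 0 to 1, 2 to 4 and 0 to 2, and the counts for XO minus XX in muscle and brain and for XmO minus XpO stayed at 0. Median scaling gave 1 call in muscle for XO minus XX, 1 in liver for XmO minus XpO, and 2 for liver against kidney, where the authors' values gave 0. Over all probes, median scaling called 671, 365 and 75 in these comparisons, where quantiles called 2, 10 and 28. With no filter 5 members passed for liver against brain, for which no count over all probes is given here. With the authors' values, which leave only probes detected in all 4 tissues, 8 members were highest in liver, 7 in kidney and 0 in brain, and on the adjusted p alone 4 were highest in muscle and 2 in brain. The causes were not tested. No value reversed its sign under an alternative. Of the alternative values of single probes, 271 kept their side of the threshold, 66 lost it and 1 gained it. Levels near that of undetected probes limit how small a difference could be seen.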
